A study of Mus musculus with 6 samples.

Results

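Cyclic AMP is made by adenylyl cyclases and acts through protein kinase A (PKA) and the Epac exchange factors. In the mouse CD4 T cell arrays analysed here, 40 genes of this machinery were found by their gene names on the array. They were 10 adenylyl cyclases (Adcy), 2 catalytic and 4 regulatory subunits of PKA (Prkac, Prkar), 3 PKA inhibitor peptides (Pki), 15 A-kinase anchoring proteins (Akap) and 6 Rap guanine nucleotide exchange factors (Rapgef). They were 40 of 27976 gene names and 85 of the probes, and the rule that picks them reads gene names and no measured value. The group itself was chosen with earlier results of these data known. A gene was tested if its probe stood well above background on 3 or more arrays in either the VIP or the untreated channel, and 37 of the 40 passed.

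The cells were CD4 T cells from the spleens of C57BL/6J mice, males and females of 6 to 32 weeks of age, with 5 to 10 spleens pooled for a sample and CD4 cells taken on magnetic beads. All cells were activated with PMA, a phorbol ester that switches on protein kinase C, and with ionomycin, which lets calcium in, and the untreated cells differed from the treated ones by having no vasoactive intestinal peptide (VIP). Both agents act below the T cell receptor, so activation by antigen was not part of the design. Neither dose nor duration of the VIP treatment is stated in the labels. By the labels, each of 6 two-colour arrays set VIP-treated against untreated RNA of 1 biological replicate. VIP was in Cy5 on replicates 1, 3 and 5 and in Cy3 on replicates 2, 4 and 6. Values below are log2 ratios of VIP over untreated.

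As background, VIP is a neuropeptide whose receptors couple to the stimulatory G protein. That G protein activates adenylyl cyclases at the membrane, and the cAMP they make binds the regulatory subunits of PKA and releases its catalytic subunits. Anchoring proteins hold PKA near its substrates, inhibitor peptides block the free catalytic subunit, and 2 of the Rap exchange factors, the Epac proteins, bind cAMP themselves. In T cells, PKA is known for dampening signalling from the T cell receptor through the kinase Csk.

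Most of this machinery did not pass the test for a change with VIP. Of the 37 tested genes, 1 was called higher with VIP, the anchoring protein gene Akap11, and 0 were called lower (limma, Benjamini-Hochberg adjusted p under 0.05 over all genes). Over all 22869 genes tested, 379 (1.66%) were called higher and 108 (0.472%) lower. Centring each array on its median in place of loess gave 112 and 8, and Agilent's own ratios gave 12 and 0, with 0 members in either direction. Without replicate 5, limma called 574 genes higher and 248 lower, and 2 members higher (Akap11 and Rapgef2). Without any of the other replicates in turn it called 0 members. The 1 call among 37 is 2.70%, against 2.13% of all genes called in either direction. At an unadjusted p under 0.05, limma put 3 of the tested members higher and 2 lower, which is 13.5% of them, against 12.9% of all genes. The median log2 ratio of the members was -0.0033, and that of all genes 0.0023. Their median absolute log2 ratio was 0.040, against 0.044 for all genes. The members lay between -0.17 and 0.22, while all genes lay between -0.66 and 1.09.

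**Figure D1:**
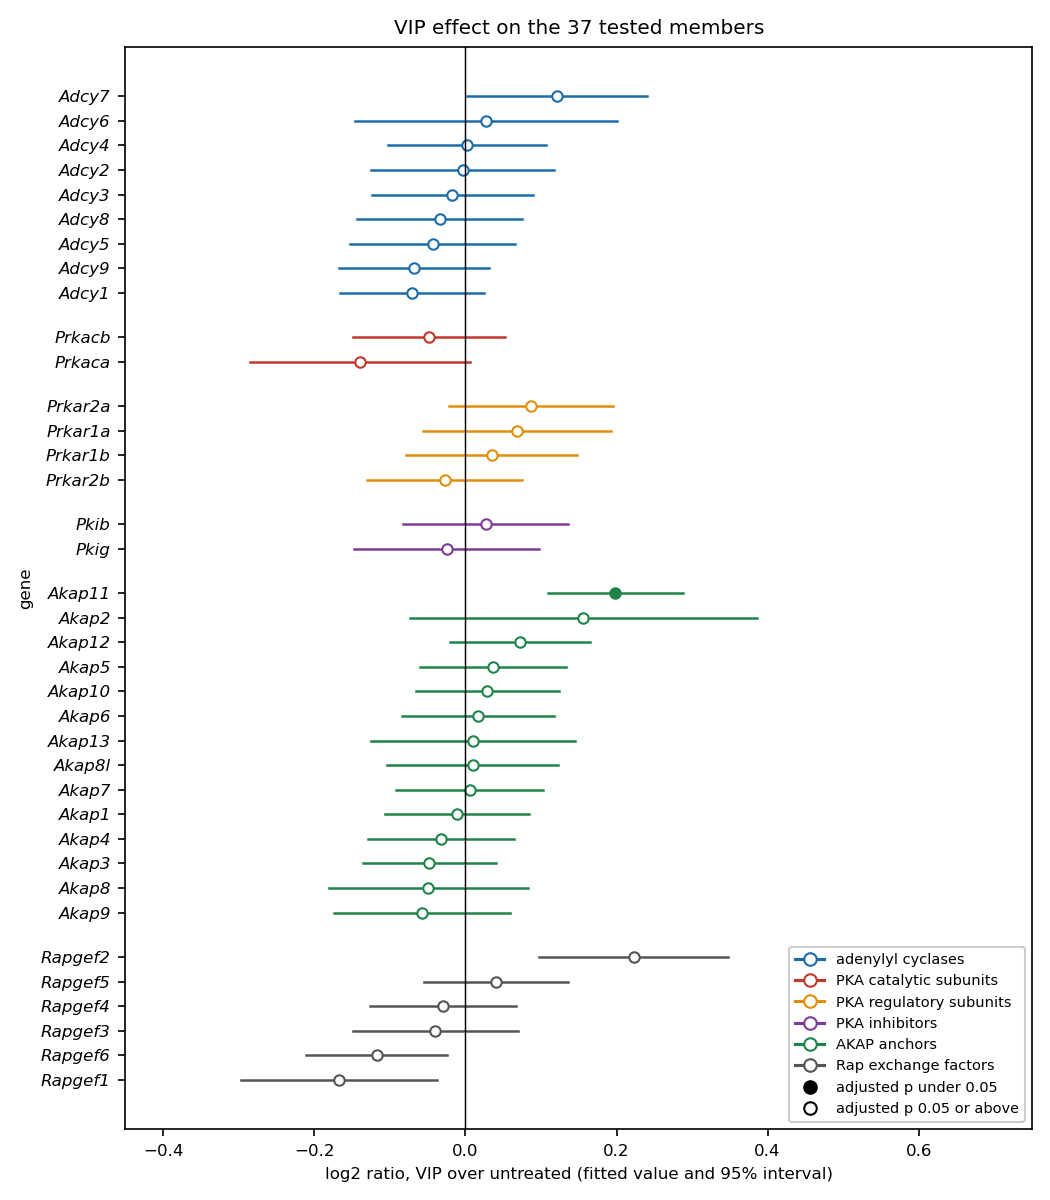
Log2 ratio of VIP over untreated for the 37 tested members, grouped by role and ordered by value, with 95% intervals from limma over 6 arrays. The filled point is Akap11 at 0.20, and the open points are the 36 genes that were not called.

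The intervals show which sizes of change the 6 arrays leave possible with the processing used here. For 29 of the 37 genes the 95% interval of the log2 ratio lay within 0.2 of 0 on both sides, and for all 37 within 0.5. The 29 include all 13 tested genes whose probe was not well above background in both channels of every array. Among these is Akap3, with the smallest SE of the members (0.040) and a probe above background on 3 arrays with VIP RNA and 2 with untreated RNA. A narrow interval of such a gene does not mean that it was well measured. The lowest bound was -0.30, for Rapgef1, and the highest 0.39, for Akap2. A p that misses the threshold does not show that a gene was the same in both groups. The number of arrays limits this precision, and the intervals do not cover the choice of processing. For Adcy5, above background on 3 arrays in each channel, the interval ran from -0.15 to 0.066, while Agilent's ratios gave -0.25.

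Array quality and cell content were as follows. By array and channel, 56.9% to 99.9% of spots stood well above background, and no probe used for a member was saturated. In replicate 5 flags took out 13.5% of the spots, against 0.574% to 4.44% on the other arrays. On that array the Y-linked Ddx3y and Eif2s3y had ratios of 4.12 and 4.22 and Xist had -3.27. On the other arrays the ratios of these genes lay between -0.34 and 0.46. The channels of replicate 5 thus differed in sex-linked RNA as well as in VIP, and these cannot be told apart on this array. Where calls below changed without this array, the values or counts without it are given too. All 8 CD4 T cell markers on the array passed the filter, and limma called 2 of them higher with VIP (Tcf7 at 0.53 and Cd28 at 0.29). So did markers of other cells, among them 8 of 8 for B cells, with 0 called, and 7 of 7 for monocytes and macrophages, with 1 called, Cd14 (0.57 ± 0.068, SE, n = 5 arrays, limma adjusted p = 0.0022). The median ratio of those 7 markers lay between -0.043 and 0.14 on the arrays. What part other cells have in the members' ratios was not tested, and fewer cells of a type cannot be told apart from less RNA per cell.

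Which members were measurable at all differed by family. For 24 of the 40 genes the probe was well above background in both channels of all 6 arrays. They included both catalytic subunits, 3 of the 4 regulatory subunits, 9 of the 15 anchoring proteins and 5 of the 6 Rap exchange factors, but 3 of the 10 cyclases (Adcy3, Adcy6 and Adcy7). A further 13 genes passed the filter on some of the arrays. The last 3 genes were not tested: Adcy10, the soluble cyclase activated by bicarbonate, Akap14, an anchoring protein of cilia, and Pkia, an inhibitor peptide. Their probes were well above background on 2 arrays in each channel. Brightness of different probes cannot be compared, so these counts give detection and not an order of levels.

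**Figure D2:**
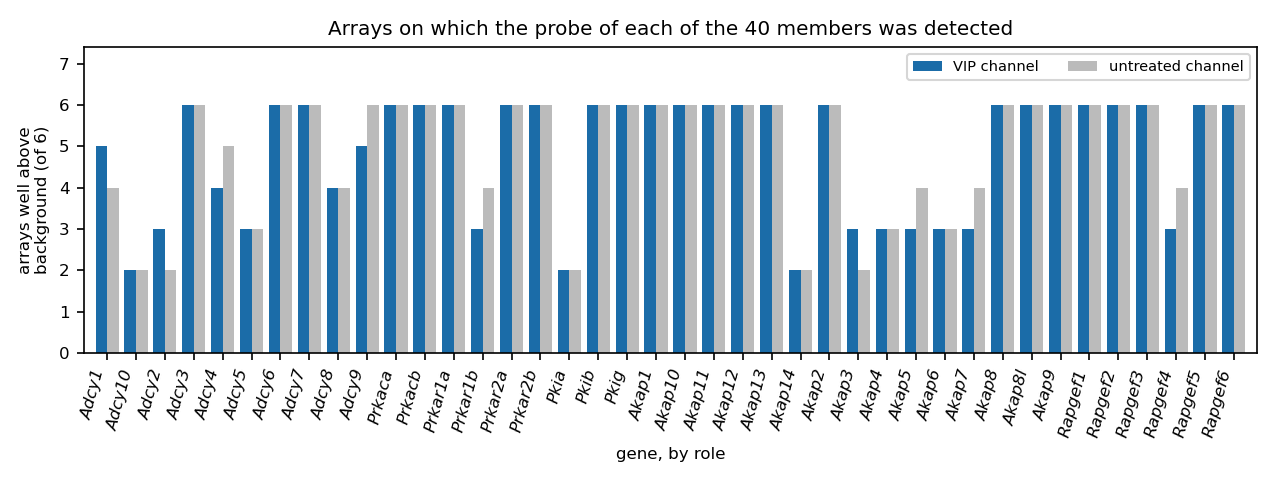
Number of arrays, of 6, on which the probe of each of the 40 members was well above background in the channel of VIP RNA (blue) or untreated RNA (grey), by role. Adcy10, Akap14 and Pkia have 2 and 2.

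Akap11 encodes a large anchoring protein that binds PKA together with the kinase GSK3 and protein phosphatase. It is shown first because it was the only member called. Its probe lies at chr14:78895067-78895126 (mm9, the build of the scanner files). The exon it falls in was not looked up, as no annotation of that build was used here. On replicates 1 to 6 the log2 ratio was 0.29, 0.16, 0.31, 0.10, 0.18 and 0.15. Every array was above 0, and replicates 1 and 3, with VIP in Cy5, were the highest. Across arrays the normalized log2 signal of the VIP channel ran from 9.56 to 10.76 and that of the untreated channel from 9.46 to 10.58, so the channels overlap between arrays and separate only within each array. The fitted log2 ratio was 0.20 ± 0.040 (SE, n = 6 arrays), a 1.15-fold higher level, with a 95% interval from 0.11 to 0.29 and a limma adjusted p of 0.0305.

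The means of the 3 slides were 0.22, 0.21 and 0.17, and a dye effect of 0.059 was removed by the fit. A second Akap11 probe, at chr14:78892256-78892315, had 0.28, -0.0032, 0.27, 0.14, 0.040 and 0.17 on the 6 arrays. It was above 0 on 5 of them, and in a limma fit over probes its ratio was 0.15 ± 0.048 (adjusted p = 0.187). The call of Akap11 was not firm. It was lost without any of replicates 1, 2, 3, 4 or 6 in turn (limma adjusted p from 0.0898 to 0.147) and kept without replicate 5 (adjusted p = 0.0169). Its direction was positive in all 22 alternative settings, where the log2 ratio ranged from 0.17 to 0.23, and limma called it in 9 of them (adjusted p from 0.0131 to 1). With every array above 0, leaving out a replicate could not turn the sign, and several other settings refit the same ratios.

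Of the 34 members with a value on all 6 arrays, Akap11 was the only 1 with the same sign on every array. Over all genes with 6 values, 6.05% had the same sign on every array.

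**Figure D3:**
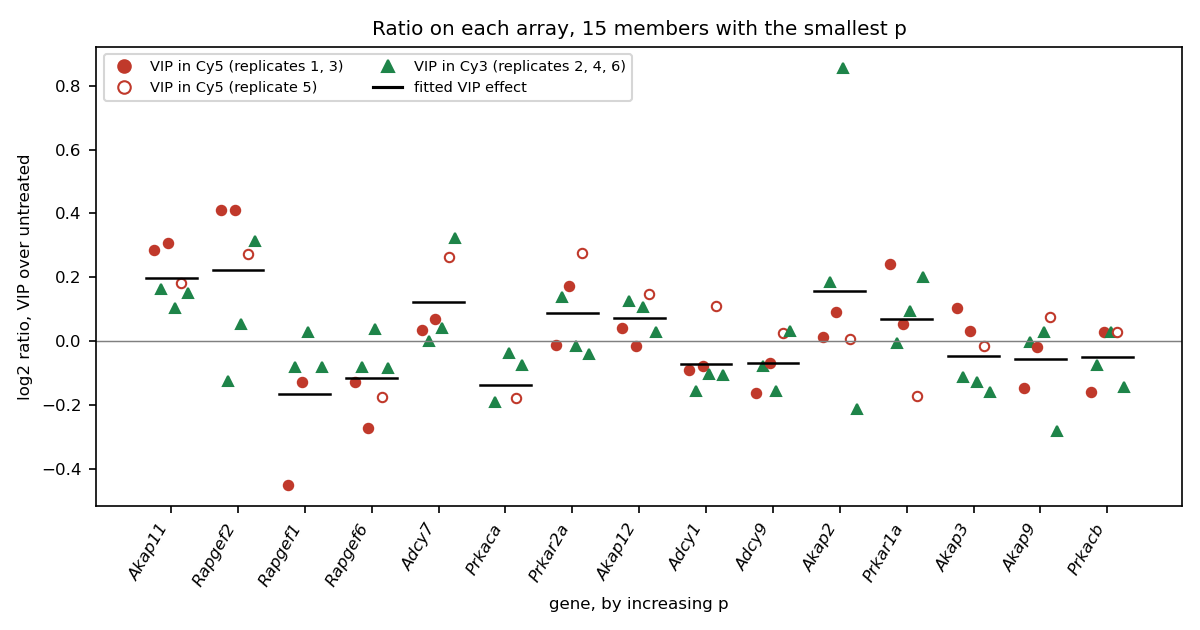
Log2 ratio of VIP over untreated on each array for the 15 members with the smallest p, in order of p, with the fitted effect as a bar. Circles have VIP in Cy5, with replicate 5 open, and triangles have VIP in Cy3. Akap11 is above 0 on all 6 arrays, and replicate 4 of Akap2 stands at 0.86.

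The promoter of Akap11 and that of Prkar1a are printed here because they hold the most matches to the cAMP response element among the members' promoters. That element, bound by the CREB family, has the full form TGACGTCA and the shorter form TGACG, which reads CGTCA on the other strand. Capitals mark the shorter form on either strand, and a full element is 2 overlapping short ones. The windows run from 250 bases before to 50 after a gene start and come from RefSeq (GRCm38.p6), read 5′ to 3′ along the gene. Akap11 is chr14:78536811-78537110 on the minus strand, and Prkar1a is chr11:109650699-109650998 on the plus strand.
Akap11: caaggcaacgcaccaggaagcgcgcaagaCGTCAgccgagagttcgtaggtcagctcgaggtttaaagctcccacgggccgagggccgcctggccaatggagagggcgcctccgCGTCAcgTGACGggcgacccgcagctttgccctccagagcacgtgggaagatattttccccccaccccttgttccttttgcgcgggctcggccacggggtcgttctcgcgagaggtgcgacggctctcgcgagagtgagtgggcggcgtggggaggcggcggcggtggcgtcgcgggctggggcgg
Prkar1a: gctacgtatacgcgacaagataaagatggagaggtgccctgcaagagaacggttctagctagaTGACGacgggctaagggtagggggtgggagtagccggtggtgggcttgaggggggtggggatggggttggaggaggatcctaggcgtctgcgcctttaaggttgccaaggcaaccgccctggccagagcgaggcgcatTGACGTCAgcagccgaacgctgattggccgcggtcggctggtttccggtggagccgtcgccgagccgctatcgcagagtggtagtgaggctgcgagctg

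The Akap11 window holds 3 short elements and no full one. The other start of Akap11 in RefSeq holds none. The Prkar1a window holds a full element 49 bases before the start and 1 more short element. RefSeq had windows for 36 of the 40 members, 66 windows in all. The short element was in 16 of the 66 (24.2%), against 20.8% of all 32851 windows, and the full one in 2 (3.03%), both of Prkar1a and overlapping each other, against 1.79%. These shares are close to those of all promoters. Prkar1a, with the full element, was not called (below), and neither Rapgef2 window holds either form. A match is a description of the letters and not a site.

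Adenylyl cyclases make cAMP from ATP. Of the 10 genes 9 were tested and 0 were called, with log2 ratios between -0.071 and 0.12 and a median of -0.017 (limma put 1 higher at an unadjusted p under 0.05). That gene was Adcy7, a cyclase of blood cells that is stimulated by G protein beta-gamma subunits. Its ratios were 0.035, -0.00018, 0.068, 0.040, 0.26 and 0.32 on replicates 1 to 6. The 2 arrays of slide 3, replicates 5 and 6, were the highest, with a slide mean of 0.29 against 0.017 and 0.054. The fitted ratio was 0.12 ± 0.054 (limma adjusted p = 0.377), and it was 0.086 without replicate 5 and 0.071 without replicate 6. A second, dimmer Adcy7 probe had 0.062 ± 0.043.

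Adcy1, a calcium- and calmodulin-stimulated cyclase best known from brain, had -0.090, -0.16, -0.077, -0.10, 0.11 and -0.11. It was below 0 on all arrays but replicate 5, and its ratio was -0.071 ± 0.043 (limma adjusted p = 0.563) with that array and -0.10 (adjusted p = 0.288) without it. The brightest Adcy1 probe had an unflagged value on 1 array only, so the next one stands for the gene. With flagged spots kept, the brightest probe stood for Adcy1 instead, at 0.16 (limma adjusted p = 0.319). That value is thus of another probe and not a change in the ratio above. Adcy9, a widely expressed cyclase, had -0.16, -0.078, -0.068, -0.16, 0.026 and 0.032. Both arrays of slide 3 were above 0 and the other 4 below, and the fitted ratio was -0.068 ± 0.045 (limma adjusted p = 0.602). The other 6 tested cyclases lay between -0.044 (Adcy5) and 0.027 (Adcy6). Adcy6, which calcium inhibits, varied most between arrays, from -0.37 on replicate 1 to 0.36 on replicate 2. Adcy2, Adcy3, Adcy4 and Adcy8 had -0.0033, -0.017, 0.0019 and -0.034.

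The catalytic subunits carry the kinase activity of PKA. Prkaca had values on 4 arrays, as its spots on replicates 1 and 3 were flagged. They were -0.19, -0.038, -0.18 and -0.074 on replicates 2, 4, 5 and 6. All 4 were below 0, and the fitted ratio was -0.14 ± 0.064 (n = 4 arrays, limma adjusted p = 0.418). Only replicate 5 had VIP in Cy5 among them, so the fit cannot be made without it. With flagged spots kept the ratio turned to 0.033 (limma adjusted p = 0.926). Prkacb, the other catalytic subunit, had -0.16, -0.076, 0.029, 0.028, 0.029 and -0.14. These were split evenly around 0, and the fitted ratio was -0.049 ± 0.045 (limma adjusted p = 0.746) and -0.017 without replicate 1.

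Regulatory subunits bind cAMP and hold the catalytic subunits inactive. For Prkar2a, the alpha subunit of type II PKA, the arrays gave -0.012, 0.14, 0.17, -0.015, 0.28 and -0.040. It was above 0 on 3 arrays and below on 3, with a fitted ratio of 0.087 ± 0.049 (limma adjusted p = 0.524), and its other probes had 0.0053 and 0.032. Prkar1a, the alpha subunit of type I PKA, had 0.24, -0.0064, 0.054, 0.093, -0.17 and 0.20. Replicate 5 was the lowest, and the fitted ratio was 0.068 ± 0.056 (limma adjusted p = 0.698) with it and 0.12 (adjusted p = 0.264) without it. Without replicate 1 the ratio of Prkar1a was 0.018 (limma adjusted p = 0.947). Prkar1b had 0.035 and Prkar2b -0.028. Limma called 0 of the 4 regulatory subunits, and 0 had an unadjusted p under 0.05.

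Inhibitor peptides bind the free catalytic subunit as false substrates. Pkib had a log2 ratio of 0.027 ± 0.049 and Pkig -0.025 ± 0.055 (limma adjusted p = 0.894 and 0.918). For Pkib the dye effect was 0.25, much larger than the VIP effect. Its ratios were between 0.21 and 0.33 on the 3 arrays with VIP in Cy5 and between -0.34 and -0.034 on those with VIP in Cy3. The sign of Pkib on an array thus followed the dye and not the treatment. In 20 of the 37 tested members the fitted dye effect was larger than the VIP effect. The share over all genes was not counted, so this is not shown to be particular to the members.

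Anchoring proteins were the largest group. Of 14 tested, limma called Akap11 higher and 0 lower (1 higher and 0 lower at an unadjusted p under 0.05), with a median ratio of 0.0098. Akap12 encodes gravin, a scaffold at the plasma membrane. It had 0.040, 0.12, -0.016, 0.11, 0.15 and 0.027, which is above 0 on 5 arrays, and a fitted ratio of 0.072 ± 0.042 (limma adjusted p = 0.540). Akap2, named Pakap in RefSeq, encodes an anchor linked to actin. Its ratios were 0.013, 0.19, 0.091, 0.86, 0.0053 and -0.21. Replicate 4 stood far above the others, and the fitted ratio was 0.16 ± 0.10 (limma adjusted p = 0.604).

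Without replicate 4 the ratio of Akap2 was 0.011, and without replicate 6 it was 0.28. Its 2 dimmer probes were above 0 on all 6 arrays, with 0.23 ± 0.060 (limma adjusted p over probes 0.096) and 0.11 ± 0.048 (adjusted p = 0.372). On replicate 4 the first of these had 0.52, its highest value too, and the second 0.047. Akap3, a protein of the sperm fibrous sheath, had 0.10, -0.11, 0.031, -0.13, -0.016 and -0.16. Its probe passed the filter on 3 arrays with VIP RNA and 2 with untreated RNA, and its fitted ratio was -0.048 ± 0.040 (limma adjusted p = 0.704). Akap9, an anchor of the centrosome and Golgi, had -0.15, -0.0037, -0.019, 0.028, 0.076 and -0.28. These gave -0.058 ± 0.053 (limma adjusted p = 0.738), with replicate 6 the lowest, and -0.0090 without that array (adjusted p = 0.972).

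The other 9 tested anchors lay between -0.049 and 0.037. Akap8, a nuclear anchor, had -0.049, and its homologue Akap8l had 0.0094. Akap1, which brings PKA to the mitochondrial outer membrane, had -0.012, and its other 2 probes had -0.0046 and -0.030. Akap5, which holds PKA with the phosphatase calcineurin, had 0.037, and its probe was above background on 3 arrays with VIP RNA and 4 with untreated RNA. Akap10 had 0.029, Akap6 0.017, Akap7 0.0055 and the sperm protein Akap4 -0.032.

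Akap13, an anchor that also activates the GTPase RhoA, shows how far the choice of probe matters. Its brightest probe had 0.010 ± 0.061 (limma adjusted p = 0.971). Another, at chr7:82724914-82724973, had 0.24, 0.22, 0.19, 0.22, 0.090 and 0.078. That probe was above 0 on all 6 arrays, at 0.17 ± 0.043 (limma adjusted p over probes 0.075). Over all probes, limma called 1 of the 74 tested member probes, that of Akap11, against 723 of 33233 (2.18%). More than 1 probe was tested for 21 members.

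**Figure D4:**
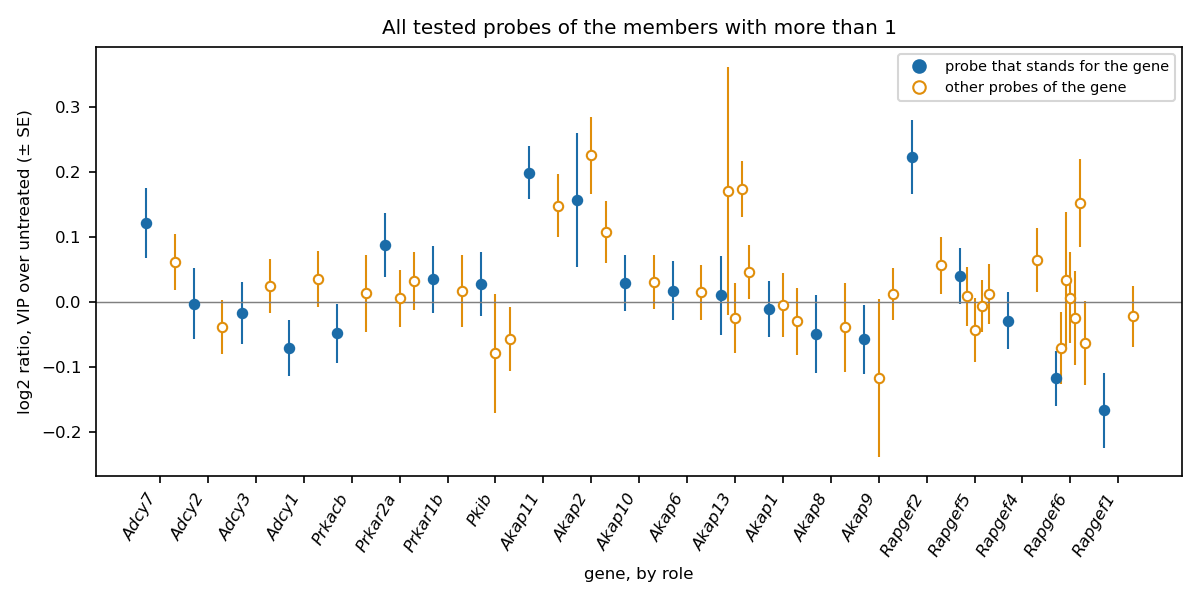
Log2 ratio (± SE) of every tested probe of the 21 members with more than 1. Filled blue points are the brightest tested probe, which stands for the gene, and open orange points are the others. All probes of Akap11 and of Akap2 are above 0, while those of Akap13 and Rapgef6 spread from below 0 to above 0.15. The highest Rapgef6 probe had values on 4 arrays, with VIP in Cy5 on replicate 3 only.

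Rap exchange factors load the small GTPase Rap, which governs adhesion through integrins in lymphocytes. Of the 6 genes limma called 0, while 1 was higher and 2 lower at an unadjusted p under 0.05, and these were the 3 members next to Akap11 by p. Rapgef2, which carries a PDZ domain, had 0.41, -0.13, 0.41, 0.052, 0.27 and 0.31. Replicate 2 was below 0 and the other 5 arrays above. Its fitted ratio was the highest of all members, 0.22 ± 0.057 (limma adjusted p = 0.0845). Without replicate 5 it was 0.25 and called (adjusted p = 0.0382), and with array weights, which gave replicate 5 a weight of 0.5, it was 0.22 and called (adjusted p = 0.0484). Over the 22 settings its limma adjusted p ranged from 0.0382 to 1. Its dye effect was 0.14, and a second probe, near background, had 0.056 ± 0.044.

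Rapgef1, which is recruited by Crk adaptor proteins, had the lowest ratio of the members. Its values were -0.45, -0.081, -0.13, 0.030 and -0.081 on replicates 1, 2, 3, 4 and 6, and replicate 5 was flagged. Replicate 1 was the lowest, and the fitted ratio was -0.17 ± 0.058 (n = 5 arrays, limma adjusted p = 0.243). Without replicate 1 it was -0.086 (limma adjusted p = 0.709). A second Rapgef1 probe had -0.022 ± 0.047. Rapgef6, a relative of Rapgef2, had -0.13, -0.081, -0.27, 0.039, -0.17 and -0.086. It was below 0 on 5 of 6 arrays, at -0.12 ± 0.042 (limma adjusted p = 0.252). Its 7 probes ranged from -0.12 to 0.15, with 3 of them above 0. The highest had values on 4 arrays, -0.056, 0.38, 0.014 and -0.20 on replicates 2, 3, 4 and 6. Only replicate 3 had VIP in Cy5 among them.

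The Epac genes Rapgef3 and Rapgef4, whose products bind cAMP, had -0.040 ± 0.049 (n = 5 arrays) and -0.029 ± 0.044. The probe of Rapgef4 was above background on 3 arrays with VIP RNA and 4 with untreated RNA. Rapgef5 had 0.040 ± 0.043. Limma gave these 3 genes adjusted p values between 0.786 and 0.865.

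The rest of the pathway was looked at through lists of other genes, all chosen with earlier results of these data known. Among the 14 tested receptors and G proteins upstream, limma called 1 higher and 0 lower (4 and 0 at an unadjusted p under 0.05). It was Ptger4, a prostaglandin E2 receptor that raises cAMP, at 0.20 ± 0.043 (adjusted p = 0.0404). The VIP receptor gene Vipr1 had -0.0034, 0.099, 0.16, 0.24, 0.41 and 0.30 on replicates 1 to 6. It was above 0 on 5 arrays, at 0.20 ± 0.056 (limma adjusted p = 0.123). Vipr2, the other receptor, was above background on 2 arrays in each channel and was not tested.

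Downstream of the members, the phosphodiesterases that break down cAMP had 3 of 14 genes called higher and 0 lower (limma; 5 and 0 at an unadjusted p under 0.05). They were Pde4b (0.22 ± 0.041, adjusted p = 0.0185), Pde2a (0.27 ± 0.050, adjusted p = 0.0199) and Pde7a (0.19 ± 0.039, adjusted p = 0.0350). Of 12 anchors of PKA with other names limma called 0, with 1 higher and 0 lower at an unadjusted p under 0.05. That gene, Ezr, encodes the membrane linker ezrin and had 0.16 (limma adjusted p = 0.136). Of 10 Epac effectors and Rap regulators 1 was called higher and 0 lower (2 and 1 unadjusted), Sipa1l1, a Rap inactivator, at 0.24 (limma adjusted p = 0.0163).

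Of 14 substrates and transcription factors of PKA, limma called 3 higher and 0 lower (3 and 4 at an unadjusted p under 0.05). They were Slc9a3r1, a membrane scaffold that binds ezrin (0.34), Sik1, a kinase that restrains CREB coactivators (0.35), and Crem, a CREB family member (0.32, n = 4 arrays, above 0 on 2). Sik3 was below 0 on all 6 arrays, at -0.32 ± 0.074, and was not called (limma adjusted p = 0.0597). The median ratio of this list was -0.029. Of 13 tested genes known to be induced by cAMP, a list drawn up with earlier results of these data known, 9 were called higher and 0 lower (12 and 0 unadjusted). Fos, a component of the transcription factor AP1, had the smallest p and a ratio of 0.71 ± 0.058 (limma adjusted p = 0.00022), and the next by p were Rgs2, a regulator of G protein signalling, at 0.47 and Fosb, a relative of Fos, at 0.39. Among the 9 called, Nr4a1 was above 0 on 3 of 6 arrays (from -0.71 to 1.13), and Dusp1 had values on 3 arrays. Over all genes, 2.13% were called in either direction and 12.9% had an unadjusted p under 0.05. Sik1 and Pde4b stand in both of their lists. The counts are descriptions, and the difference between these lists and the members was not tested.

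The calls of the other lists depended on the arrays to different degrees. Slc9a3r1, Fos, Rgs2 and Fosb were called without each replicate in turn, and Sik1 was lost only without replicate 3. The calls of Pde4b were lost without replicates 1, 2, 3 and 4, those of Pde2a, Sipa1l1 and Crem without 1, 3, 4 and 6, and those of Pde7a and Ptger4 without replicates 1, 2, 3, 4 and 6, each left out in turn. All 6 of these genes stayed called without replicate 5. Of the cAMP-induced genes 5 to 10 were called higher without each replicate in turn. Among these fits Nr4a1 and Areg were called only in the one without replicate 5. Without replicate 5 limma called 4 phosphodiesterases, 2 receptors or G proteins and 10 cAMP-induced genes higher and 0 of them lower. Of the Epac effectors and Rap regulators it then called 1 higher and 1 lower, and of the substrates and transcription factors 3 higher and 2 lower. Without replicate 2 it called 1 of those substrates and transcription factors lower. Cd28 was lost without replicates 1 and 6.

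**Figure D5:**
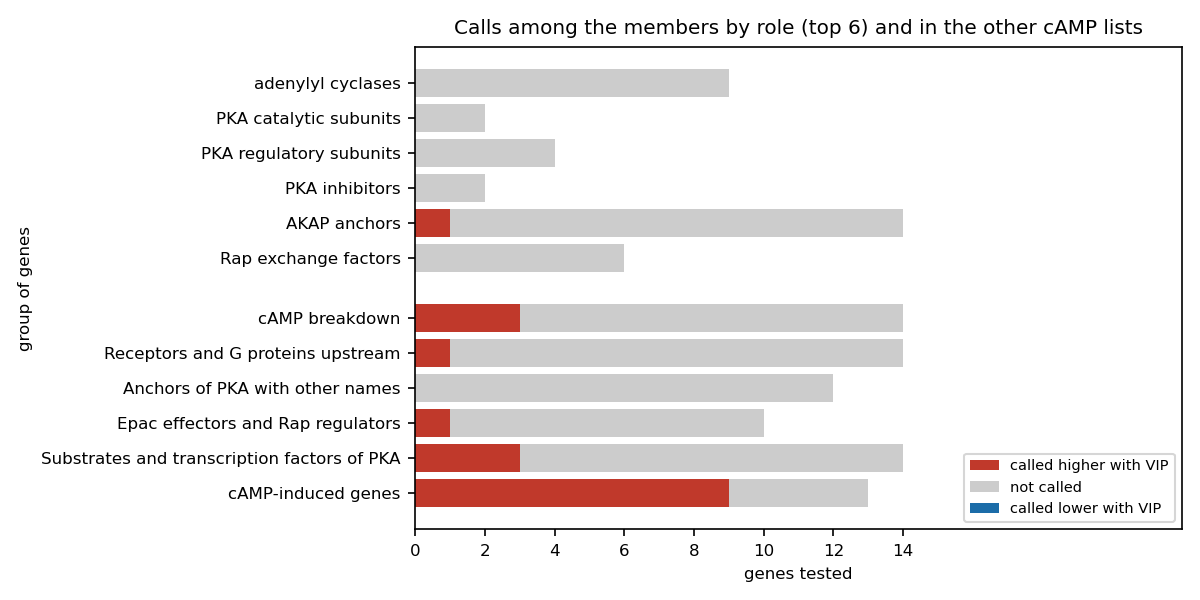
Number of tested genes called higher (red), lower (blue, none here) or not called (grey) by limma in each role of the members, above, and in each list of other cAMP genes, below. The members and all lists were chosen with earlier results of these data known. The cAMP-induced genes have 9 of 13 called higher. The anchoring proteins have 1 of 14 and each other role of the members 0. Of all genes 2.13% were called, and differences between the lists were not tested.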

How the data were processed

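Total RNA (250 ng) was labelled for two-colour Agilent arrays, per the labels' protocols, and read with Agilent Feature Extraction 9.5.1.1, per the file headers. The deposited scanner files give spot intensity, local background and other per-spot quality columns, which were used as flags of 0 or 1, and Agilent's log10 ratio. The authors' deposited series table holds the same log10 ratio, reversed on the arrays with VIP in Cy3 (they differ by at most 4.5e-06), and was used as an alternative.

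Mean intensity was corrected with normexp (offset 50) and loess within each array in limma 3.58.1 under R 4.3.3. Control spots and outlier-flagged spots had weight 0 and were left out. A gene was represented by its brightest probe with values in both dye orientations. The fit (lmFit, eBayes) had a dye intercept and a VIP effect, over all 22869 genes, and p-values were adjusted by Benjamini-Hochberg. They rest on the spread between these 6 arrays, moderated by eBayes towards a prior from all genes. The prior had 6.56 degrees of freedom, against at most 4 residual ones for a gene. Each SE given here is moderated in the same way. Simulated data with known changes were used to test this fit. Each of 3 slides held 1 array of each orientation, so slide and VIP can be told apart. Array position and dye orientation cannot, as position 2 always carried the Cy5 orientation of VIP and position 4 the Cy3 one. A bias between the dyes that differed by position would therefore enter the fitted VIP effects. The fit cannot separate such a bias from VIP. Values on all arrays are given for the 15 members with the smallest p and for Vipr1. Of each other list at most 6 called genes, or else the 3 with the smallest p, were to be named. Sik3, Nr4a1, Dusp1 and Areg are named beyond that rule, to show limits of the counts. Alternatives varied background, normalization, filter, flags, probe rule, names, dye term, weights, prior, slide, pairing, replicates and threshold. The members and lists were chosen with earlier results of these data known.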

Additional observations from a re-analysis of the deposited data

Results flagged for a closer look

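The ratios on the arrays were searched for a single array that stood apart by Dixon's 95% criterion, in the 37 tested members and 6 other genes. Chance flags about 1 in 20 such groups. Among the members 3 were found. Adcy1 had 0.108 on replicate 5, while its other arrays lay between -0.157 and -0.0772. Akap2 had 0.856 on replicate 4, and its other arrays lay between -0.214 and 0.186. Akap6, an anchor near background here, had -0.167 on replicate 3, against 0.0278 to 0.0888 on the others.

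Among the other genes, 4 sex-linked ones stood apart on replicate 5. Xist had -3.27 (others -0.336 to 0.464), Ddx3y 4.12 (others -0.0991 to 0.394), Eif2s3y 4.22 (others -0.149 to 0.287) and Kdm5d 1.11 (others -0.139 to 0.135). Whether the channels of replicate 5 came from the same pool of mice was not tested.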

How the results depend on the processing

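The median ratio of the members stayed within the spread of the array medians in all settings, and 0 members were called lower in any. Of the 37 tested members, 19 kept their sign in all settings that could be fitted. The number of members called higher was 0 with normexp offset 0, median centring, Agilent's ratios, the authors' series table, outlier flags kept, the mean of all probes, no dye term, no replicate block and an adjusted p under 0.01. It was 2 with array weights and with an adjusted p under 0.1, and 0 to 2 without each replicate in turn.

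Over all genes, the counts called higher and lower were 85 and 10 with offset 0, 112 and 8 with median centring, 12 and 0 with Agilent's ratios or the authors' table, 190 and 38 with no dye term, 192 and 34 at an adjusted p under 0.01, and 186 to 574 and 29 to 248 without each replicate in turn. The count called lower was 215 with array weights and 211 at an adjusted p under 0.1. With both channels as unpaired samples, which drops the pairing within an array (no replicate block), limma called 1 and 0, and Akap11 had an adjusted p of 1. The causes were not tested. For 13 of the tested members the probe was not well above background in both channels of every array, which limits their ratios.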
